A study of Mus musculus with 18 samples.

Results

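Activator protein 1 (AP-1) transcripts were followed in mouse hearts during acute myocardial infarction (AMI). The 9 genes described, Fos, Fosb, Fosl1, Fosl2, Jun, Junb, Jund, Atf3 and Batf, were taken by symbol from a table of 24419 gene symbols, and each had 1 row. The rule used the symbols alone, and the choice was made with earlier results of these data known. All 18 animals were C57BL/6 mice 8 weeks old, anaesthetised with sodium pentobarbital. A control group of 3, the sham mice, was compared with mice whose proximal left anterior descending coronary artery had been ligated and whose hearts were taken 10 min, 1 h, 6 h, 24 h or 72 h later, with 3 mice at each time. No sham group was matched to each time, so time since anaesthesia and surgery cannot be told apart from time since ligation. Polyadenylated RNA from the infarcted left ventricle, a mixture of cell types, was sequenced. Levels are FPKM, fragments per kilobase of transcript scaled to the number of mapped fragments, which correct for gene length, so that levels of different genes can be set side by side. All FPKM sums lay between 542418 and 600467 per mouse, and no read counts accompanied them, so the depth behind each value is unknown.

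AP-1 is a dimer of basic leucine zipper (bZIP) proteins. JUN proteins can pair with each other or with a FOS protein, whereas FOS proteins need a JUN partner to bind DNA, and ATF3 and BATF also bind DNA together with JUN proteins. FOS, FOSB, JUN and JUNB are products of immediate early genes, which are transcribed within minutes of a growth factor or stress signal without new protein synthesis, through kinases that act on factors already sitting at their promoters. In the heart these genes are known for a fast response to stretch, ischemia and reperfusion.

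The promoters of Fos, Fosb and Junb are shown because these 3 genes had the largest differences from sham at 10 min among the members and share a short motif in the window read. Sequences are those of RefSeq on GRCm38.p6 (mm10) and cover the 250 bases that end just before the annotated start, written 5′ to 3′ on the strand of the gene. Capitals mark TGACG, the core of the cyclic AMP response element (CRE) that CREB and ATF factors bind. The windows are chr12:85473640-85473889 on the plus strand for Fos, chr7:19310046-19310295 on the minus strand for Fosb and chr8:84978749-84978998 on the minus strand for Junb.
Fos: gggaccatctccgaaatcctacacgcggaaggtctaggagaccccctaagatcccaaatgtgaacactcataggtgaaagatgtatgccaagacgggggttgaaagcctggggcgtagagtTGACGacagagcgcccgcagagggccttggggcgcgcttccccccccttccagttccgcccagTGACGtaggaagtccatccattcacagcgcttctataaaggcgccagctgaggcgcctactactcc
Fosb: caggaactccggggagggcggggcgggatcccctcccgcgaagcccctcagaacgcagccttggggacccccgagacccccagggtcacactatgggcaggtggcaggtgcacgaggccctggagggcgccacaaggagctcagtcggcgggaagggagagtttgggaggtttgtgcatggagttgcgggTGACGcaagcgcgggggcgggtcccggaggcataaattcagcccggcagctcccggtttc
Junb: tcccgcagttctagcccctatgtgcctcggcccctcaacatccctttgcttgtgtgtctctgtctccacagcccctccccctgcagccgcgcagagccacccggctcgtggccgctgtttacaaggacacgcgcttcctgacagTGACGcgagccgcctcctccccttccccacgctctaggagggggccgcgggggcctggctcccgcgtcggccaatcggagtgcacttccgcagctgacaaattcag
TGACG was searched on both strands, and it began 129 and 66 bases before the start in Fos, 60 before it in Fosb and 106 before it in Junb. The Atf3 and Batf windows also held it, so that 5 of the 8 member promoters with a RefSeq entry had a match, against 17.8% of 32851 promoters of the same length. The complete CRE, TGACGTCA, which contains the core, was in 0 of the 8 (1.55% of all), and the AP-1 site TGANTCA was in 0 of the 8 (6.75% of all). The CArG box of serum response factor was in 0 of the 8 (1.47% of all). The TATA element TATAAA was in Fos alone of the 8, beginning 33 bases before the start (12.4% of all). RefSeq starts matched those of GENCODE M21, the annotation used for gene positions below, for Fos and Jun and differed for the other windows. The Jund window, chr8:70697489-70697738, lies wholly before the GENCODE start at 70698949. The Atf3 and Fosl2 windows lie inside the GENCODE genes and the Batf and Fosb windows partly so. The motifs were picked after the promoters had been looked at, and a match or its absence describes letters in these windows only.

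At 10 min Fos and Junb were the 2 of 9 members called higher than sham, a call being an adjusted p under 0.05 from limma over all genes tested, and 0.248% of those genes were called higher. No member was called lower, against 0.0978% of all genes. Fosb, Fosl2 and Jun also lay above all sham mice at 10 min without a call, and Fosl2 was called after quantile normalization (adjusted p = 0.0482 by limma). Members were not tested against each other. At 1 h, 6 of 9 members were called higher (0.669% of all genes) and 0 lower (0.0526%), these being Fos, Fosb, Fosl2, Jun, Junb and Atf3. At 6 h, 8 of 9 were called higher (11.6% of all genes) and 0 lower (16.8%), with Fosl1 and Batf added. At 24 h, 7 were called higher (26.2% of all genes) and 0 lower (11.4%), and at 72 h 7 higher (53.1%) and 0 lower (24.2%), so that at 72 h the members' share was set against a background of more than 1 gene in 2. In the order of the times, the median log2 difference of the 9 members from sham was 0.42, 2.46, 2.86, 1.17 and 2.0. The corresponding medians over all genes were 0.017, -0.015, -0.083, 0.127 and 0.288. All 3 AMI mice lay above all 3 sham mice for 5 members at 10 min (12.2% of all genes) and 6 at 1 h (7.41%). This held for 8 members at 6 h (18.6%), 8 at 24 h (39.3%) and 7 at 72 h (55.1%). The calls of Fos and Junb at 10 min were lost without any 1 of the sham mice or without mouse 3 of 10 min, leaving 0 members. Without sham mouse 1 the 7 calls at 24 h came to 4, Fosb, Fosl1 and Jun being lost. Differences are given throughout on the scale of log2(FPKM + 1), where the change of a gene near 0 comes out too small, and all comparisons with sham share the same 3 sham mice.

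**Figure D1:**
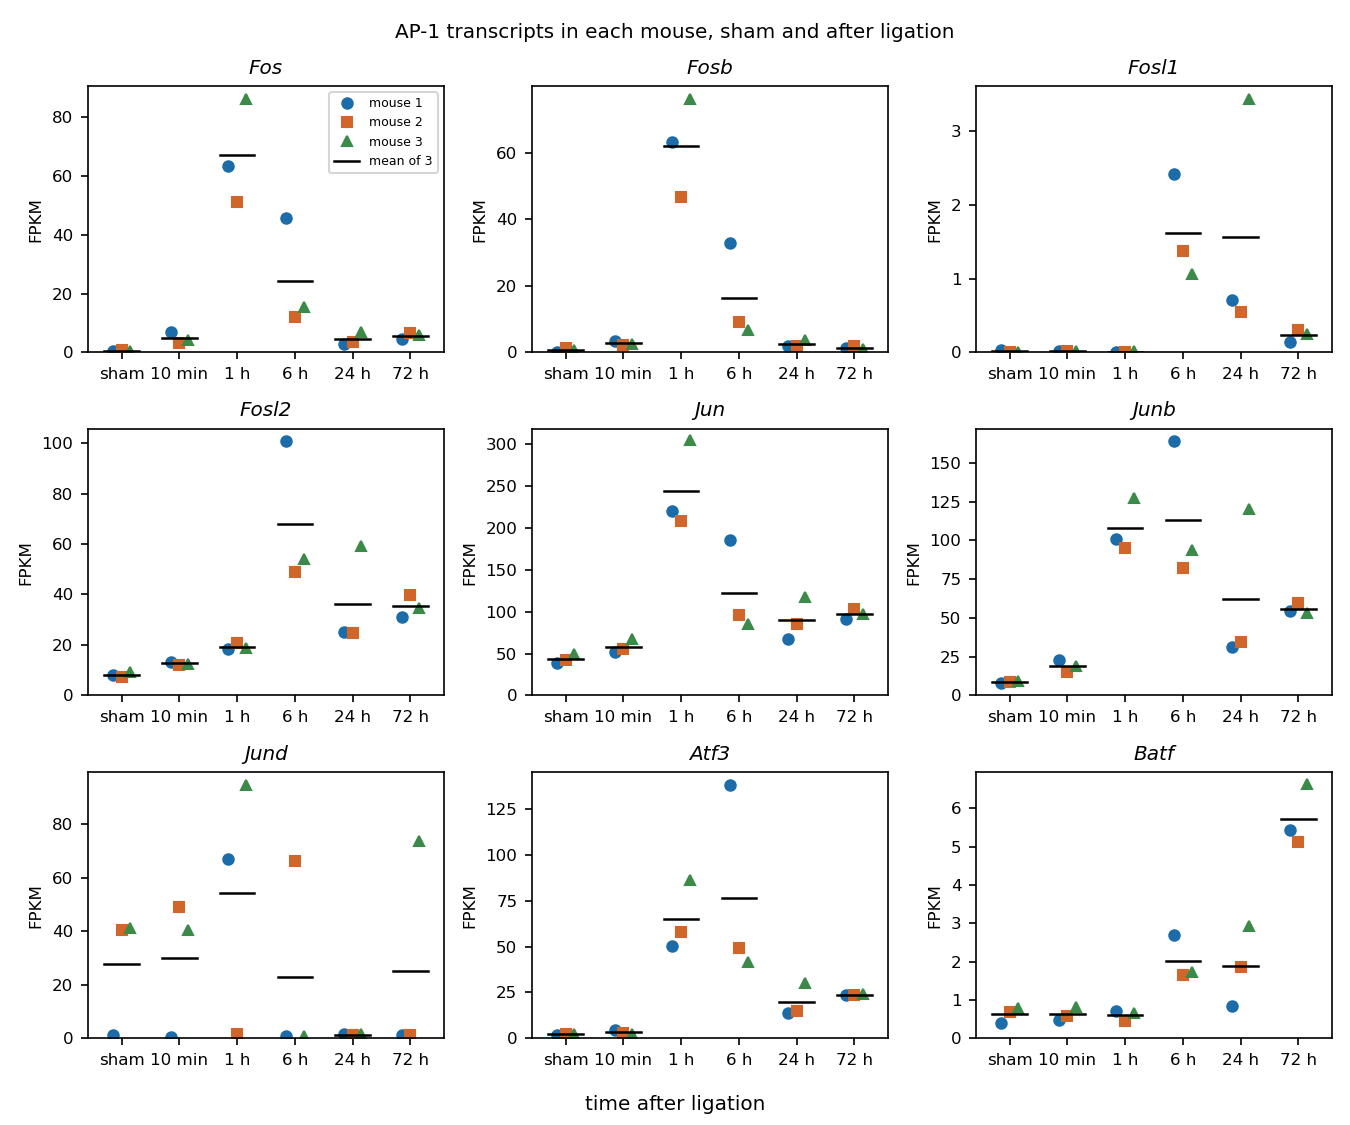
FPKM (vertical axis, linear, a separate scale for each gene) of the 9 AP-1 genes in each mouse, by group along the horizontal axis; symbols are mice 1 to 3 of a group and the line is their mean. Fos reached 51.3 to 86.3 FPKM at 1 h from at most 0.697 in sham, Batf was highest at 72 h, and Jund lay either under 2 or over 40 FPKM.

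Fos, the founding member of the FOS subfamily and the standard marker of immediate early transcription, measured 0.355, 0.697 and 0.537 FPKM in the sham mice. It was at 6.92, 3.22 and 4.14 FPKM at 10 min and at 63.4, 51.3 and 86.3 FPKM at 1 h. At 6 h mouse 1 had 45.6 FPKM and the other two 11.9 and 15.5 FPKM. Every mouse at these 3 times lay above every sham mouse, and mouse 1 at 6 h stood well apart from the rest of its group. At 24 h the values were 2.71, 3.52 and 6.96 FPKM and at 72 h 4.48, 6.77 and 5.91 FPKM, still above all sham mice. The log2 difference from sham was 1.87 ± 0.22 (SE; adjusted p = 0.0357 by limma, n = 3 against 3) at 10 min. It was 5.45 ± 0.18 at 1 h (adjusted p = 1.01e-05 by limma), the largest of all genes tested there, and the mean at 1 h was 126 times that of sham. At 6 h it was 3.82 ± 0.43 (adjusted p = 0.00173 by limma), at 24 h 1.75 ± 0.27 (adjusted p = 0.0064) and at 72 h 2.13 ± 0.14 (adjusted p = 2.1e-06). From 10 min to 1 h Fos rose by 3.58 (adjusted p = 0.000873 by limma). It then fell by 1.63 from 1 h to 6 h (adjusted p = 0.0416 by limma) and by 2.07 from 6 h to 24 h (adjusted p = 0.0366 by limma), while 72 h differed from 24 h by 0.38 (adjusted p = 0.310). Of the excess over sham at 1 h, 35.9% was left at 6 h, 5.82% at 24 h and 7.81% at 72 h.

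Fosb, the FOS subfamily member known for the stable splice form that outlasts a stimulus, followed Fos closely up to 1 h. Its sham values were 0.258, 1.19 and 0.815 FPKM, and at 10 min 3.52, 2.23 and 2.56 FPKM. The groups did not overlap, but the difference of 1.13 ± 0.21 missed the threshold (adjusted p = 0.0820 by limma). At 1 h it measured 63.1, 46.6 and 76.2 FPKM, which differed from sham by 5.18 ± 0.23 (adjusted p = 3.76e-05 by limma). The rise of 4.05 from 10 min to 1 h (adjusted p = 0.000264 by limma) was the largest of all genes tested in that comparison. At 6 h it was at 32.9, 9.04 and 6.80 FPKM, at 24 h at 1.80, 1.81 and 3.85 FPKM and at 72 h at 1.35, 1.80 and 0.888 FPKM. Mouse 1 was again the highest at 6 h, and the 72 h values overlapped those of sham. Fosb fell by 2.16 from 1 h to 6 h (adjusted p = 0.0261 by limma) and by 2.04 from 6 h to 24 h (adjusted p = 0.0436 by limma). It was called higher than sham by 0.98 ± 0.28 at 24 h (adjusted p = 0.0330), a call lost without any 1 of the sham mice (adjusted p = 0.0540 to 0.105 by limma) and after quantile normalization (adjusted p = 0.0575), and at 72 h the difference was 0.44 (adjusted p = 0.0897). Of the excess over sham at 1 h, 2.83% was left at 24 h and 0.971% at 72 h, against 5.82% and 7.81% for Fos. For Fos and Fosb the splice forms cannot be told apart in a table with 1 value per symbol.

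Fosl2, which encodes FRA-2, a FOS protein without the strong activation domain of FOS, was the only FOS subfamily gene well above 1 FPKM in sham, at 7.89, 7.10 and 9.24 FPKM. At 10 min it measured 13.4, 12.2 and 12.6 FPKM and at 1 h 18.3, 20.6 and 18.8 FPKM. These 3 groups did not overlap, and the spread within each was small. The difference from sham was 0.60 at 10 min (adjusted p = 0.0593 by limma), 1.16 ± 0.10 at 1 h (adjusted p = 0.00117) and 2.86 ± 0.26 at 6 h (adjusted p = 0.000782), when the mice were at 100.9, 49.0 and 54.1 FPKM. The step from 1 h to 6 h was 1.70 (adjusted p = 0.00635 by limma), while Fos and Fosb fell over the same interval. At 24 h the values were 25.0, 24.6 and 59.3 FPKM and at 72 h 31.1, 39.8 and 34.8 FPKM. Mouse 3 at 24 h lay far above its group, and the difference of -0.94 between 24 h and 6 h was not called (adjusted p = 0.130 by limma). Fosl2 remained called higher than sham, by 1.92 ± 0.33 at 24 h (adjusted p = 0.0076) and 2.0 ± 0.11 at 72 h (adjusted p = 7.99e-07 by limma), with 45.3% of the excess at 6 h left at 72 h.

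Fosl1 encodes FRA-1, a related FOS protein whose gene is itself a known AP-1 target. It was near 0 in sham, 10 min and 1 h mice, with 0.0325 FPKM as the highest of the 9 values and a listed value of 0 in 2 of the 1 h mice. At 6 h it measured 2.42, 1.38 and 1.07 FPKM, at 24 h 0.714, 0.546 and 3.44 FPKM and at 72 h 0.147, 0.306 and 0.252 FPKM. The mice of the last 3 groups all lay above all sham mice, at low levels throughout. Genes were tested if at least 1 mouse had at least 1 FPKM, which Fosl1 reached only at 6 h and 24 h, so it entered the test through groups where it was high. Fosl1 was higher than sham by 1.34 ± 0.18 at 6 h (adjusted p = 0.00281 by limma) and by 1.17 ± 0.38 at 24 h (adjusted p = 0.0471), and the 1 h to 6 h step was 1.35 (adjusted p = 0.00447). The 24 h call was lost without any 1 of the sham mice (adjusted p = 0.115 to 0.119). At 72 h the difference was 0.28 ± 0.09 (adjusted p = 0.0197 by limma), and it changed sign to -0.05 (adjusted p = 0.596) after quantile normalization.

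The make-up of the FOS subfamily transcripts differed between times. Their summed level, FPKM of the 4 genes together, was 9.38 ± 1.08 (SD, n = 3) in sham and 20.3 ± 3.16 at 10 min. It reached 148.2 ± 31.6 at 1 h and 110.2 ± 62.1 at 6 h, and the last groups had 44.8 ± 24.9 (24 h) and 42.5 ± 5.84 (72 h). Fosl2 made up 86.2% ± 6.77 of the sum in sham, 63.5% ± 6.69 at 10 min and 13.5% ± 3.596 at 1 h. It made up 64.7% ± 7.96 at 6 h, 81.4% ± 1.197 at 24 h and 82.9% ± 1.07 at 72 h. Fos and Fosb held 44.9% ± 2.37 and 41.6% ± 2.16 of the sum at 1 h. The shares of the 1 h mice did not overlap those of any other group for Fos, Fosb or Fosl2, and with 3 mice against 3 the smallest p an exact two-sided permutation test can give is 0.1. Fosl1 never exceeded 4.68% of the sum in a mouse.

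**Figure D2:**
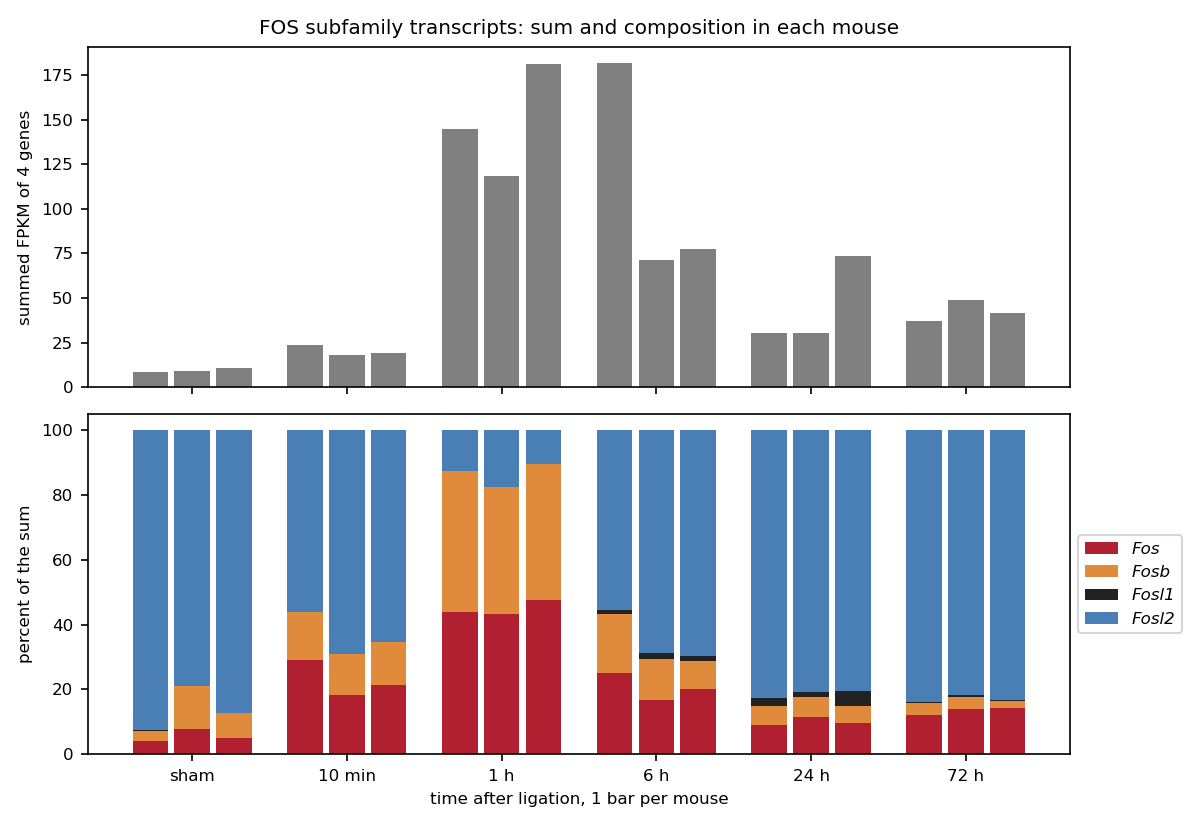
Summed FPKM of Fos, Fosb, Fosl1 and Fosl2 (upper panel, linear from 0) and the percent of that sum from each gene (lower panel), with 1 bar for each mouse in the order mouse 1 to 3 within a group. Fosl2 made up 79.0% to 92.4% of the sum in sham, 10.4% to 17.4% at 1 h and over 80% again at 24 h and 72 h.

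Jun was the most abundant member in each sham mouse, at 38.9, 41.8 and 49.1 FPKM. Its product is the main dimer partner of the FOS proteins. It measured 52.1, 55.3 and 67.3 FPKM at 10 min, above all sham mice, without passing the test (0.42, adjusted p = 0.181 by limma). At 1 h the mice were at 219.6, 207.7 and 304.6 FPKM, the highest level of any member at any time. That was 5.64 times the sham mean and a log2 difference of 2.46 ± 0.15 (adjusted p = 0.000195 by limma). At 6 h it was at 185.0, 95.7 and 85.3 FPKM, at 24 h at 67.4, 85.8 and 116.9 FPKM and at 72 h at 90.7, 102.6 and 96.8 FPKM. Mouse 1 was highest at 6 h, and none of these 9 mice overlapped with sham. Jun fell by 1.06 from 1 h to 6 h (adjusted p = 0.0400 by limma), after which neighbouring times did not differ beyond their spread (-0.38, adjusted p = 0.403, and 0.14, adjusted p = 0.596). It remained called higher than sham by 1.39 at 6 h, 1.01 at 24 h and 1.15 at 72 h (adjusted p = 0.0106, 0.0114 and 6.83e-06 by limma), with 26.6% of the excess at 1 h left at 72 h.

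Junb, whose product forms AP-1 dimers that are weaker activators than those of JUN on many promoters, was called from 10 min onwards, as Fos was. Sham mice had 8.10, 8.53 and 9.50 FPKM and 10 min mice 22.8, 15.04 and 18.95 FPKM, a difference of 1.02 ± 0.14 (adjusted p = 0.0403 by limma). At 1 h it was at 100.9, 94.8 and 127.4 FPKM and at 6 h at 164.0, 82.3 and 93.5 FPKM. The last 2 groups overlapped, and their difference was 0.02 (adjusted p = 0.968 by limma), so that 1 h and 6 h could not be ordered. Junb was higher than sham by 3.47 ± 0.11 at 1 h (adjusted p = 1.01e-05 by limma) and by 3.49 ± 0.24 at 6 h (adjusted p = 0.000319). At 24 h mice 1 and 2 had 31.4 and 34.5 FPKM and mouse 3 had 120.1 FPKM, and the 72 h mice had 54.3, 59.8 and 53.4 FPKM. The differences from sham were 2.42 ± 0.47 (adjusted p = 0.0113) and 2.55 ± 0.08 (adjusted p = 3.39e-08 by limma), and 45.1% of the excess at 6 h was left at 72 h.

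Atf3, the stress-induced ATF family member that as a homodimer represses transcription and also pairs with JUN proteins, was called from 1 h onwards. It measured 2.08, 2.25 and 2.60 FPKM in sham and 4.65, 3.19 and 2.16 FPKM at 10 min, and these groups overlapped (0.35, adjusted p = 0.458 by limma). At 1 h it was at 50.2, 58.1 and 86.1 FPKM, which was 4.28 ± 0.18 above sham (adjusted p = 3.01e-05 by limma) and 3.93 above 10 min (adjusted p = 0.000674). At 6 h mouse 1 had 138.2 FPKM, far above 49.1 and 41.8 FPKM in the other two, which lay below all 1 h mice. The mean at 6 h was 33.1 times that of sham, and the difference between 6 h and 1 h was 0.06 (adjusted p = 0.936 by limma). It fell by 1.78 from 6 h to 24 h (adjusted p = 0.0459 by limma), to 14.02, 14.95 and 30.04 FPKM. At 72 h the mice were at 23.6, 23.5 and 24.1 FPKM, with the smallest SD as percent of the mean (1.27%) of any member and group, and 2.90 ± 0.08 above sham (adjusted p = 2.21e-08 by limma).

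Batf, which encodes a bZIP protein without an activation domain that is best known from lymphoid and myeloid cells, had the latest course. It was below 1 FPKM in all sham, 10 min and 1 h mice, with 0.402 to 0.828 FPKM over these 9. At 6 h it measured 2.71, 1.65 and 1.74 FPKM, at 24 h 0.840, 1.86 and 2.94 FPKM and at 72 h 5.42, 5.12 and 6.64 FPKM. The 72 h mice lay above every other mouse. Batf passed the filter of 1 FPKM only through mice of 6 h, 24 h and 72 h, where it was high. Batf was higher than sham by 0.88 ± 0.16 at 6 h (adjusted p = 0.0084 by limma) and 2.04 ± 0.13 at 72 h (adjusted p = 1.27e-06), while the 24 h difference of 0.76 ± 0.27 missed the threshold (adjusted p = 0.0614). It was the only member called between 24 h and 72 h, where it rose by 1.29 (adjusted p = 0.00677 by limma), against 29.7% of all genes called higher in that comparison. Batf lies 209 kb beyond Fos on chromosome 12 (mm10, Fos chr12:85473890-85477273, Batf chr12:85686669-85709087, both on the plus strand of GENCODE M21). The 1 protein-coding gene between them was Jdp2, a repressor that dimerizes with JUN, which had 6.44 ± 0.92 FPKM in sham and 13.1 ± 0.43 at 72 h (SD, n = 3). The 3 neighbours thus had their highest group means at 1 h (Fos) and 72 h (Jdp2 and Batf).

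Jund, which encodes the JUN protein usually present without a stimulus, could not be placed in this order. It measured 1.14, 40.6 and 41.4 FPKM in sham, 0.576, 48.9 and 40.6 FPKM at 10 min and 67.1, 1.49 and 94.8 FPKM at 1 h. It was at 0.956, 66.4 and 1.03 FPKM at 6 h, at 1.466, 1.401 and 1.504 FPKM at 24 h and at 1.204, 1.187 and 73.67 FPKM at 72 h. Over the 18 mice 10 values lay under 2 FPKM and 8 over 40 FPKM, with a 27.0-fold step and no value between, and both kinds occurred in 5 of the 6 groups. Among 13333 genes tested, Hbb-b1, a hemoglobin gene with a near-identical copy, was the other gene with at least 5 mice under 2, at least 5 over 40 FPKM and none between. Jund was called at no time (at 24 h -2.67 ± 1.08, adjusted p = 0.0893 by limma). Without sham mouse 1, which had the low value, the 24 h difference was -4.10 and was called (adjusted p = 0.000368 by limma). Jund has 1668 exonic bases in GENCODE M21 (chr8:70698949-70700616, plus strand), and 877 of them are also covered by the antisense gene Gm11175. Whether the authors' counting used the strand is not given in the sources used here, so reads of the pair cannot be told apart, and what sets the step was not tested. Other members also share exonic bases with a gene on the opposite strand, 1163 for Fosl1 with Ccdc85b, 232 for Jun with Junos and 173 for Junb with Prdx2. What these add to the member levels was not tested. Gm11175 and Junos had no row among the deposited symbols, whereas Ccdc85b and Prdx2 did. Ccdc85b was at 20.7 ± 1.17 FPKM in sham, where Fosl1 was at most 0.0325 FPKM, and at 25.7 ± 3.09 at 6 h. Prdx2 was at 406.7 ± 20.6 FPKM in sham and 355.4 ± 23.7 at 6 h.

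**Figure D3:**
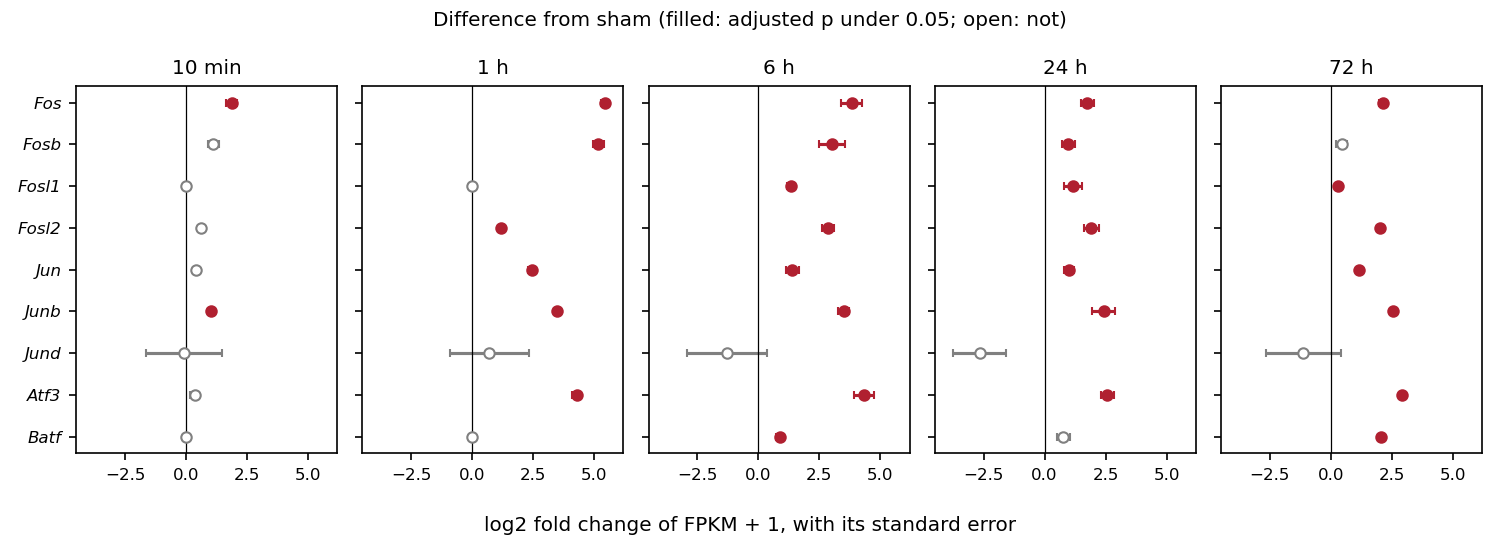
Difference from sham on the scale of log2(FPKM + 1) (horizontal axis, bars are standard errors) for the 9 AP-1 genes, with 1 panel for each time; filled points have an adjusted p under 0.05 and open points do not. There were 2, 6, 8, 7 and 7 filled points at 10 min, 1 h, 6 h, 24 h and 72 h, all to the right of 0, and Jund was open with wide bars throughout.

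Set in order of their highest group mean, Fos, Fosb and Jun came first at 1 h, Junb, Atf3, Fosl1 and Fosl2 followed at 6 h, and Batf came last at 72 h. Between 10 min and 1 h, 6 of 9 members were called higher (0.391% of all genes) and 0 lower (0.211%). Between 1 h and 6 h, Fosl1, Fosl2 and Batf rose (3 of 9, 9.32% of all genes) and Fos, Fosb and Jun fell (3 of 9, 11.2% of all genes), while Junb and Atf3 were not called. Between 6 h and 24 h, 0 members were called higher (12.5% of all genes) and Fos, Fosb and Atf3 were called lower (3 of 9, 1.94% of all genes). Between 24 h and 72 h Batf was called higher (1 of 9, 29.7% of all genes) and 0 members lower (13.5% of all genes). Without mouse 3 of 24 h Fos, Fosl2, Junb and Atf3 were called higher as well and Fosl1 lower. Of the excess over sham in the highest group, the share left at 24 h ran from 2.83% for Fosb and 5.82% for Fos through 23.3% for Jun and 23.4% for Atf3 to 47.1% for Fosl2, 51.0% for Junb and 96.6% for Fosl1. The last 3 of these shares leaned on mouse 3 of 24 h, which had 59.3 FPKM for Fosl2, 120.1 for Junb and 3.44 for Fosl1. Mice 1 and 2 of 24 h had 25.0 and 24.6 FPKM for Fosl2, 31.4 and 34.5 for Junb, and 0.714 and 0.546 for Fosl1. No test was run on the shares, and their order at the high end is not secure. The places of Junb, Atf3 and Fosl1 rested on single mice. Without mouse 1 of 6 h, Junb and Atf3 were highest at 1 h and Fosl1 at 24 h. The called falls from 1 h to 6 h came to 0 without any 1 mouse of 1 h or without mouse 2 or 3 of 6 h. Those from 6 h to 24 h came to 0 without any 1 mouse of 6 h or without mouse 1 or 2 of 24 h. Without mouse 1 of 6 h the values were Fos at -1.52 (adjusted p = 0.0613 by limma), Fosb at -1.39 (adjusted p = 0.0569) and Atf3 at -1.25 (adjusted p = 0.0798).

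**Figure D4:**
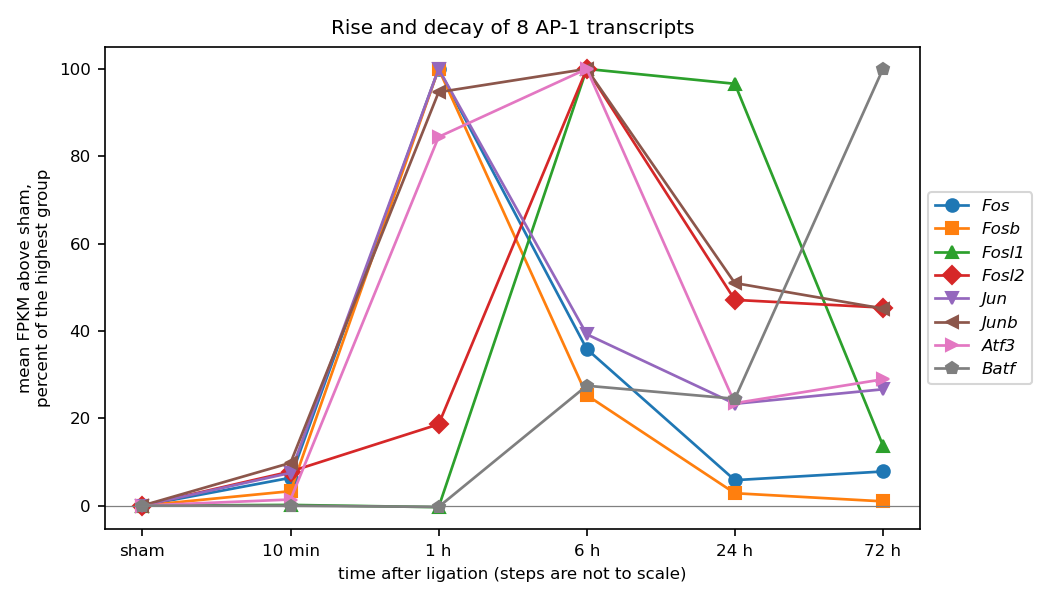
Group mean FPKM minus the sham mean, as percent of the same difference in the gene's highest group (vertical axis), against time after ligation (horizontal axis, steps not to scale), for 8 AP-1 genes; Jund is left out because of its step. Fos, Fosb and Jun were at 100% at 1 h and at 25.3% to 39.2% at 6 h, when Junb, Atf3, Fosl1 and Fosl2 were at 100%, and Batf reached 100% at 72 h.

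The 2 mice that stood apart among the members also stood apart in neutrophil markers, and in other cell markers as well. The summed FPKM of the 5 neutrophil markers measured (S100a8, S100a9, Csf3r, Cxcr2 and Retnlg) lay between 2.32 and 5.0 in sham, with 1 marker at 0 in 2 of the sham mice. At 10 min the sum was 23.8, 8.38 and 5.47 in mice 1 to 3 and at 1 h 16.6 to 29.9, above all sham mice. At 10 min 0 of 5 markers were called, when 0.248% of all genes were called higher. Mouse 1 of 10 min, with the highest sum of its group, was also the highest of it for Fos, Fosb, Fosl2, Junb and Atf3. The same mouse was the lowest of its group for Jun, Jund and Batf, at 52.1, 0.576 and 0.491 FPKM. The neutrophil sum was 996.6 in mouse 1, 115.7 in mouse 2 and 374.7 in mouse 3 at 6 h, and 209.4, 42.6 and 964.6 in mice 1 to 3 at 24 h. Mouse 1 at 6 h was highest of its group for all members but Jund, and mouse 3 at 24 h was highest of its group for all 9. The sum at 72 h was 49.6 to 60.2. Markers called higher than sham were 2 of 5 at 1 h (0.669% of all genes), 5 of 5 at 6 h (11.6%) and 4 of 5 at 72 h (53.1%). All but S100a9 were under 1 FPKM in every sham mouse and passed the filter only through mice after ligation, so these counts are not independent of the filter. Without mouse 1 of 6 h, 8 members were still called higher than sham at 6 h, by 3.26 for Fos, 3.19 for Junb and 3.81 for Atf3. Without mouse 3 of 24 h, 7 members were still called higher at 24 h, by 1.43 for Fos, 1.81 for Junb and 2.23 for Atf3. Mouse 1 of 6 h had the lowest cardiomyocyte sum of its group (36796 against 44452 and 40693 FPKM). Its pan-leukocyte sum was the highest (200 against 59.5 and 104), as were its endothelial and macrophage sums. Mouse 3 of 24 h had the lowest cardiomyocyte sum (28946 against 36581 and 36454). Its pan-leukocyte sum was the highest (528 against 235 and 257), again with the endothelial and macrophage sums. The part of any of these cells in the member levels was not tested.

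Other cell markers moved with the later times. The 6 macrophage and monocyte markers summed to 187 to 212 FPKM in sham, 141 to 235 at 6 h, 474 to 671 at 24 h and 3385 to 4496 at 72 h. At 72 h 6 of 6 were called higher, against 53.1% of all genes. The 6 cardiomyocyte markers fell from 43037 to 45177 FPKM in sham to 17500 to 21288 at 72 h, with 6 of 6 called lower (24.2% of all genes). The 6 fibroblast markers reached 2615 to 3392 FPKM at 72 h, against 210 to 228 in sham, with 6 of 6 called higher (53.1% of all genes). At 10 min and 1 h 0 of 6 cardiomyocyte, macrophage or fibroblast markers were called, when 0.248% and 0.669% of all genes were called higher. With an unadjusted p under 0.05 by limma there were 3, 2 and 1 of these markers at 10 min, and 2, 1 and 1 at 1 h. The lack of calls therefore does not show that the early cell mixture was unchanged. The 5 lymphocyte markers summed to 0.911 to 1.43 FPKM in sham and 2.99 to 4.08 FPKM at 72 h, without overlap. At 72 h 55.1% of all genes lay above all sham mice in the same way. The 1 lymphocyte marker that passed the filter was called higher at 72 h, as 53.1% of all genes were. In bulk tissue, fewer cells of a type and less RNA per cell cannot be told apart, and for Batf, Fosl2, Junb and Atf3 at 72 h the part of the changed cell mixture was not tested.

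Genes of the same pathway were read from lists. Of the EGR and NR4A early factors, zinc finger and nuclear receptor genes induced by the same signals, 1 of 6 tested was called higher at 10 min and 5 of 6 at each later time, when the share of all genes called higher went from 0.248% at 10 min through 0.669% (1 h), 11.6% (6 h) and 26.2% (24 h) to 53.1% (72 h). Egr1, an immediate early zinc finger gene, went from 4.86 FPKM in sham to 17.4 at 10 min (1.63, adjusted p = 0.0357 by limma) and 129.9 at 1 h (4.47, adjusted p = 1.01e-05). Nr4a1 went from 3.42 to 43.4 FPKM at 1 h (3.32, adjusted p = 7.28e-05 by limma). The median of the list at 1 h was 1.33, against 2.46 for the AP-1 members and -0.015 for all genes.

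Other bZIP genes are possible partners or competitors of AP-1. Of 16 tested, 0 were called at 10 min, when 0.248% of all genes were called higher. At 1 h 1 was called higher by limma (0.669% of all genes), with 5 at an unadjusted p under 0.05 at each of these times. At 6 h 7 were called higher (11.6% of all genes) and 1 lower (16.8%), and at 24 h 10 higher (26.2%). At 72 h 14 were called higher (53.1% of all genes) and 2 lower (24.2%). The medians were 0.29 at 6 h and 0.54 at 72 h. Maff, a small MAF protein without an activation domain, was the one at 1 h, at 13.3 FPKM against 5.64 in sham (1.10, adjusted p = 0.00552 by limma), and it reached 40.2 FPKM at 6 h (2.59, adjusted p = 0.000638). Maf, which encodes the bZIP factor c-MAF, reached 108.0 FPKM at 72 h from 14.4 FPKM in sham (2.84, adjusted p = 1.64e-07 by limma).

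Kinases and ternary complex factors that act on AP-1 genes or proteins were a further list. Of 15 tested, 0 were called at 10 min or 1 h by limma, with 3 and 2 at an unadjusted p under 0.05. Of all genes, 0.248% were called higher and 0.0978% lower at 10 min, and 0.669% and 0.0526% at 1 h. With shares this small, a count of 0 says little about the list. At 6 h 1 of 15 was called higher (Rps6ka3, 0.56) and 1 of 15 lower (Mapk3, which encodes ERK1, -0.41), against 11.6% and 16.8% of all genes. At 24 h 4 of 15 were called higher (26.2% of all genes) and at 72 h 5 of 15, a smaller share than the 53.1% of all genes. The median difference of the list was 0.040 at 1 h and 0.121 at 72 h. Transcript levels do not measure the activity of kinases.

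Of 16 textbook AP-1 target genes tested, 0 were called at 10 min by limma, when 0.248% of all genes were called higher. At that time 2 had an unadjusted p under 0.05, and 3 were called higher at 1 h (0.669% of all genes). There were 11 called higher at 6 h (11.6% of all genes), 11 at 24 h (26.2%) and 15 at 72 h (53.1%), with 1 lower at 72 h (24.2%). Il6, Spp1, Timp1, Ptgs2, Mmp9, Mmp13 and Lif were under 1 FPKM in all sham mice. They passed the filter only through mice after ligation, so these counts are not independent of the filter. The 3 at 1 h were Ccl2, a monocyte chemokine, at 9.76 FPKM against 3.25 (1.34, adjusted p = 0.000663 by limma), Ptgs2, the inducible cyclooxygenase, at 4.56 against 0.297 (2.08, adjusted p = 0.0015), and Il6 at 0.588 against 0.0057 (0.66, adjusted p = 0.00507). At 6 h Hmox1, heme oxygenase 1, was at 82.5 FPKM against 4.61 (3.88, adjusted p = 5.41e-05 by limma) and Timp1, an inhibitor of matrix metalloproteinases, at 11.5 against 0.431 (3.11, adjusted p = 0.000106). At 72 h Spp1, osteopontin, was at 311.7 FPKM against 0.0351 (8.23, adjusted p = 3.98e-09 by limma). The gene called lower at 72 h was Vegfa, at 93.6 against 158.6 FPKM (-0.77). The median difference of the list was 0.075 at 1 h, when the AP-1 median was 2.46, and 1.65 at 6 h, 2.27 at 24 h and 2.22 at 72 h.

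Genes with the most similar profile were named for each member by Pearson's r of log2(FPKM + 1) over the 18 mice, as a description of mice that share groups. For Fos these were Zfp36 (r = 0.982), Egr1 (0.979) and Ier2 (0.950), all immediate early genes, and for Fosb Zfp36 (0.958), Rasd1 (0.955) and Nr4a1 (0.954). Zfp36, which encodes an RNA-binding protein that shortens the life of AU-rich mRNAs, was at 4.85 FPKM in sham and 54.0 at 1 h. Jun was closest to Ier2 (0.967), and Junb and Atf3 were both closest to Cyr61 (0.955 and 0.962), a matricellular gene with 177.2 FPKM at 1 h and 177.5 at 6 h. Fosl2 was closest to Ptx3 (0.963), a pentraxin gene, and Fosl1 to Rab44 (0.980), which was at 15.7 FPKM at 6 h and 24.3 at 24 h. Batf was closest to Rasa3 (0.979), Apobec3 (0.976) and Irf8 (0.976), genes with known roles in blood cells. Jund reached at most 0.785 (Gltscr1). Between members, r was 0.966 for Junb and Atf3, 0.951 for Fos and Fosb, 0.936 for Fos and Jun and 0.824 for Fosl1 and Fosl2.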

How the data were processed

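Per the submitters' processing notes, the authors trimmed reads with cutadapt 1.18, aligned them to mm10 with HISAT2 2.1.0, estimated expression with StringTie 1.3.4d and tested it with Cufflinks and Cuffdiff, which needs the reads and was not repeated. Values were deposited as FPKM for each gene symbol, which the authors' tools scale by length and depth. The annotation is not given in the sources used here. All 18 columns were used. In 4 column headers the spelling differed from the sample title (a letter l for the digit in 1 h, an n for the h in 6 h), and they were matched by the rest of the name. The control mice of the labels are called sham, as in the study.

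The 13333 of 24419 symbols with at least 1 FPKM in at least 1 mouse were tested as log2(FPKM + 1) with limma 3.58.1 in R 4.3.3 (eBayes with a variance trend), each comparison on its own 6 mice and two-sided. Fos, Fosl1 and Batf were under 1 FPKM in all sham mice and passed this filter only through mice after ligation. The same was true of genes on the lists, among them Egr2, Egr3, Nr4a2, Batf3, Itgam and the target genes and neutrophil markers named above for it. Adjustment was that of Benjamini and Hochberg, over those genes of the comparison that were not at 0 in all 6. On data simulated for both groups from the means and SDs of the sham mice, 198 of 200 genes with a log2 change of 2 were recovered. There were 13 false calls among 13332 genes. The changed genes were drawn only from those with a sham mean of log2(FPKM + 1) over 3. The recovery therefore does not cover genes lower in sham, such as Fos, Fosb, Fosl1, Atf3 and Batf, or groups with a wider spread than sham. Plots used Python 3.11.15, pandas 2.3.3, numpy 2.4.6 and matplotlib 3.10.9. Positions are from GENCODE M21 and promoters from RefSeq. The members and gene lists were chosen with earlier results of these data known. From each list, up to 4 called genes with the lowest adjusted p at a time could be named, and for each member the 3 most similar genes. Vegfa and Hbb-b1 were named after their values were seen. Alternatives were another call rule, pseudocount, filter, scaling and fit, a replicate block, and leaving out each mouse.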

Additional observations from a re-analysis of the deposited data

Results flagged for a closer look

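These differences between consecutive times, each tested by limma with Benjamini-Hochberg adjustment over all genes and called at an adjusted p under 0.05, mean that the change of a member against sham differed between the 2 times. All are on the scale of log2(FPKM + 1), with 3 mice a group. Between 10 min and 1 h, 6 members differed, with Fosb at 4.05, Atf3 at 3.93, Fos at 3.58, Junb at 2.45, Jun at 2.03 and Fosl2 at 0.56. The Fosl2 step was lost without mouse 2 or 3 of 10 min or mouse 1 or 2 of 1 h (adjusted p = 0.0583 to 0.112 by limma).

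Between 1 h and 6 h, 6 members differed in opposite directions. Fosl2 rose by 1.70, Fosl1 by 1.35 and Batf by 0.89, while Fosb changed by -2.16, Fos by -1.63 and Jun by -1.06. The 3 rises were called whichever single mouse was left out. The 3 falls came to 0 calls without any 1 mouse of 1 h or without mouse 2 or 3 of 6 h, and to 1 with median-of-ratios scaling (Fos at an adjusted p of 0.0536 and Jun at 0.0609 by limma).

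Between 6 h and 24 h, Fos changed by -2.07, Fosb by -2.04 and Atf3 by -1.78, and all 3 calls were lost without any 1 mouse of 6 h or without mouse 1 or 2 of 24 h. Between 24 h and 72 h, Batf rose by 1.29.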

How the results depend on the processing

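All values here are counts of members called, unless said otherwise. The 2 members called higher at 10 min became 0 with no filter on low FPKM, with all 18 mice in 1 fit, with no variance trend and with the replicate block, and 0 to 2 when a mouse was left out (0 without any 1 sham mouse or mouse 3 of 10 min). Counts of members higher at 1 h and 6 h moved by less than 1.5 times under every alternative. At 24 h the 7 higher ranged from 4 to 8 (4 without sham mouse 1) and the 0 lower from 0 to 1, and 1 was lower by an unadjusted p under 0.05 with a ratio over 2 (Jund). From 1 h to 6 h the 3 lower became 0 with no filter, 1 with median-of-ratios scaling and 0 to 3 without a mouse (0 without any 1 mouse of 1 h, or mouse 2 or 3 of 6 h). From 6 h to 24 h the 3 lower became 0 with no filter, 1 with either median-of-ratios scaling or quantile normalization, 5 with all 18 mice in 1 fit, 0 with the replicate block and 0 to 4 without a mouse (0 without any 1 mouse of 6 h, or mouse 1 or 2 of 24 h). From 24 h to 72 h the 0 lower became 1 by the ratio rule, 1 with a pseudocount of 0.1, 2 after quantile normalization, 1 in 1 fit of 18 mice and 0 to 1 without a mouse, and the 1 higher ranged from 1 to 5. Without mouse 3 of 24 h Fos, Fosl2, Junb and Atf3 joined Batf there. The peak time ranged from 1 to 6 h for Junb (1 h without mouse 2 of 1 h or mouse 1 of 6 h) and Atf3, and from 6 to 24 h for Fosl1 (24 h without mouse 1 of 6 h, or mouse 1 or 2 of 24 h). Fosl1 at 72 h reversed to -0.0457 under quantile normalization. The cause of these shifts was not tested. Of the single differences, 1044 kept direction and call, 86 lost a call, 26 gained one and 49 without a call changed sign.

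Scaling moved the median of all genes from 0.127 to 0.0155 at 24 h and from 0.288 to 0.0292 at 72 h (median-of-ratios), and the split of genes called higher and lower from 1543 and 2233 to 1981 and 1513 at 6 h, from 3496 and 1516 to 2532 and 2322 at 24 h and from 7081 and 3226 to 5158 and 4761 at 72 h. With median-of-ratios scaling 7 members were called higher at 72 h, and with quantile normalization 6.

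Replicate numbers were not taken as pairs, since the correlations of same-numbered deviations ran from -0.327 to 0.415 and no comparison had all 3 over 0.1. Unknown depth limits what can be said of members below 1 FPKM.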
